A study of Mus musculus with 18 samples.

Results

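The transcriptomes of mouse embryonic kidney cells that carried short hairpin RNAs (shRNAs) against Rock1 and Rock2 were compared with those of cells that carried a scrambled control, in the cell fraction most strongly marked by the vector's reporter. The comparison was defined by the sample labels. It takes the 3 libraries of mCherry-positive cells given Rock1/2-shRNA and the 3 libraries of mCherry-positive cells given scramble-shRNA, which are 6 of the 18 bulk RNA-seq libraries of the study. All kidneys were wild type, came from CD1 mice, an outbred stock, and were taken at embryonic day 14. They were exposed for 4 hours to AAV2, an adeno-associated virus used as a gene carrier, and then grown for 72 hours as explants embedded in a gel of collagen I and Matrigel. In every vector the CAG promoter, which is active in most cell types, drove the red reporter mCherry followed by a pair of miR-30-based shRNA cassettes. In the Rock1/2-shRNA vector the cassettes were directed against 1 region of Rock1 and 1 region of Rock2, and the scramble-shRNA vector held the same target sequences with their bases shuffled. A further vector against Mylk served as another knockdown. The kidneys of a litter that had received the same vector were pooled, digested for 30 minutes and sorted, so a library is a pool of explants from 1 litter and the 3 replicates are 3 litters. Cells in the top 25% of mCherry signal were kept as the positive fraction and cells in the bottom 50% as the negative fraction. The gate was relative, so the positive fraction was set by rank and not by a fixed level of vector expression, and it held whichever kidney cell types the virus entered. The shRNA target sequences were not used here.

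ROCK1 and ROCK2 are serine/threonine kinases of the actin cytoskeleton. They raise actomyosin tension by phosphorylating the myosin regulatory light chain and by inhibiting the myosin phosphatase through its targeting subunit MYPT1, the product of Ppp1r12a, and they stabilise actin filaments through LIM kinases and cofilin. When actin is polymerised the coactivators MRTF-A and MRTF-B are released from actin monomers and drive serum response factor (SRF) on genes of the cytoskeleton, and tension also keeps the coactivators YAP and TAZ in the nucleus. In the developing kidney these kinases are known from inhibitor studies on branching of the ureteric bud and on the shaping of early nephrons.

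The 6 libraries held 3121616 to 8451626 counts (median 4858720). Mitochondrially encoded transcripts made up 3.00 to 6.202% of the counts, and the highest share was in the Rock1/2-shRNA library of litter 3. The tissue named by the labels was seen in the markers of both groups. Six2, which maintains nephron progenitors, stood at 192 to 225 CPM (the count scaled to the library's total, as deposited) with scramble-shRNA and at 186 to 221 CPM with Rock1/2-shRNA, and Foxd1, which marks the renal stroma, stood at 243 to 370 and 231 to 359 CPM. The labels give no sex for the embryos of a pool, and the libraries differed in sex-linked transcripts. Summed over the Y-linked genes, scramble-shRNA gave 91.3, 77.9 and 105 CPM in litters 1 to 3, while Rock1/2-shRNA gave 40.5, 24.5 and 168 CPM. Xist, the RNA that coats the inactive X chromosome in female cells, stood at 180, 85.2 and 252 CPM with scramble-shRNA and at 188, 236 and 3.92 CPM with Rock1/2-shRNA. In the Rock1/2-shRNA library of litter 3 Xist was thus near the floor of the study and the Y-linked sum was the highest of the 6, and the negative fraction of the same pool showed the same with 1.71 and 179 CPM. The 12 libraries of the other vectors lay between 73.9 and 157 CPM for the Y-linked sum.

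**Figure D1:**
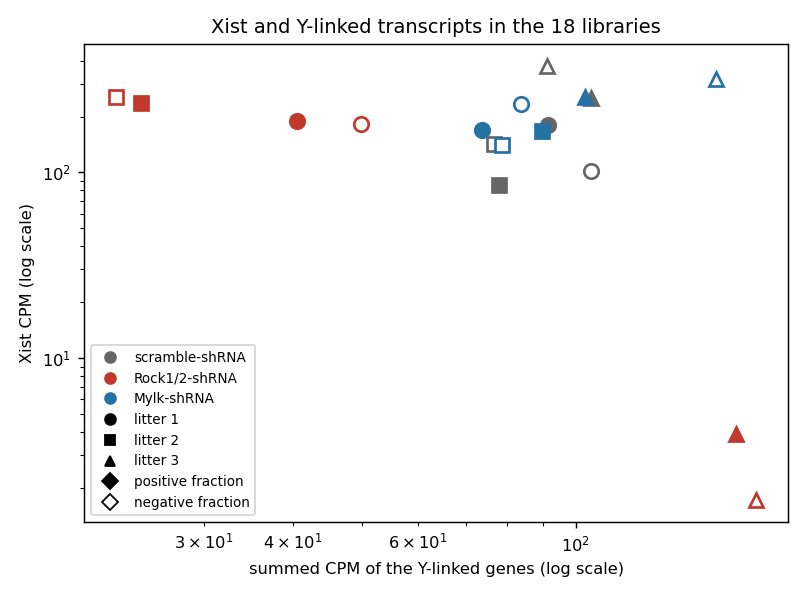
Each point is a library, with the summed CPM of the Y-linked genes on the x axis and the CPM of Xist on the y axis (both log scales), coloured by vector, shaped by litter and filled for the positive fraction. Both Rock1/2-shRNA libraries of litter 3 lie at the bottom right, with Xist at 3.92 and 1.71 CPM, and the Rock1/2-shRNA libraries of litters 1 and 2 lie furthest to the left.

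The transcripts that the shRNAs were designed against were examined first. Rock1 stood at 78.9, 76.5 and 101 CPM in the scramble-shRNA libraries of litters 1 to 3 and at 82.2, 83.9 and 74.7 CPM in the Rock1/2-shRNA libraries. The groups overlapped, with the Rock1/2-shRNA value above the control in litters 1 and 2 and below it in litter 3. Rock2 stood at 65.0, 67.5 and 81.9 CPM with scramble-shRNA and at 56.2, 67.7 and 65.0 CPM with Rock1/2-shRNA. These groups overlapped too, and the values of litter 2 were almost equal. In the fit across all genes Rock1 was at 94.95% of its scramble-shRNA level (95% interval 79.5 to 114%) and Rock2 at 89.3% (74.4 to 107%), each with an adjusted p of 1 by edgeR's quasi-likelihood test. A 2-sided exact permutation test on log2(CPM + 1), for which 0.1 is the smallest p that 3 against 3 libraries allow, gave 0.8 for Rock1 and 0.4 for Rock2. A mean knockdown to under 79.5% of Rock1 or under 74.4% of Rock2 in the polyadenylated RNA of the pooled fraction lay outside these 95% intervals. The intervals rest on a spread estimated over all 18 libraries and do not exclude a stronger decrease. Single litters varied more, with the CPM of Rock1 at 104, 110 and 73.7% of scramble-shRNA in litters 1 to 3. The direction for Rock1 rested on litter 3, since without that litter its log2 fold change was 0.08 instead of -0.07. A change in protein, or in a small share of the sorted cells, was not measured. In the negative fraction Rock1 was at 88.0% (74.3 to 104%) and Rock2 at 94.0% (79.2 to 112%) of scramble-shRNA. The response in the positive fraction relative to that in the negative fraction was 108% (84.5 to 138%) for Rock1 and 95.1% (74.0 to 122%) for Rock2, so both intervals held 100%. Mylk, which the other vector targets, was at 93.1% (78.9 to 110%) with Rock1/2-shRNA.

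Across the transcriptome no gene passed the test. Of 16544 genes tested with edgeR's quasi-likelihood test with litter as a block, 0 (0%) had an adjusted p under 0.05, and the smallest adjusted p was 1. At an unadjusted p under 0.05 there were 352 genes (2.13%), 184 higher (1.11%) and 168 lower (1.02%) with Rock1/2-shRNA. This share was smaller than the 0.05 that evenly spread p-values would give. By DESeq2 0 genes passed and 185 had an unadjusted p under 0.05, and by limma's voom the counts were 0 and 358. The count of genes that passed was 1 without the filter on low counts and 3 when only the compared libraries were fitted. Over the settings that kept every litter and library of the groups, the number at an unadjusted p under 0.05 ran from 145 to 784. The CPM of the 3 Rock1/2-shRNA libraries lay wholly above or below that of the 3 scramble-shRNA libraries for 788 genes (4.76%), 401 of them higher (2.42%) and 387 lower (2.34%). The log2 fold changes of all genes had a median of 0.00, so the groups were not offset. The precision was enough to bound most genes. Standard errors of the log2 fold changes had a median of 0.16, and of 0.12 for the 10225 genes with at least 10 CPM. Of those genes, 10160 (99.4%) had a 95% interval that stayed within a 2-fold change either way and 9607 (94.0%) one that stayed within 1.5-fold. A response of more than 1.5-fold was therefore outside the interval for most transcripts at this level, taken one at a time.

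**Figure D2:**
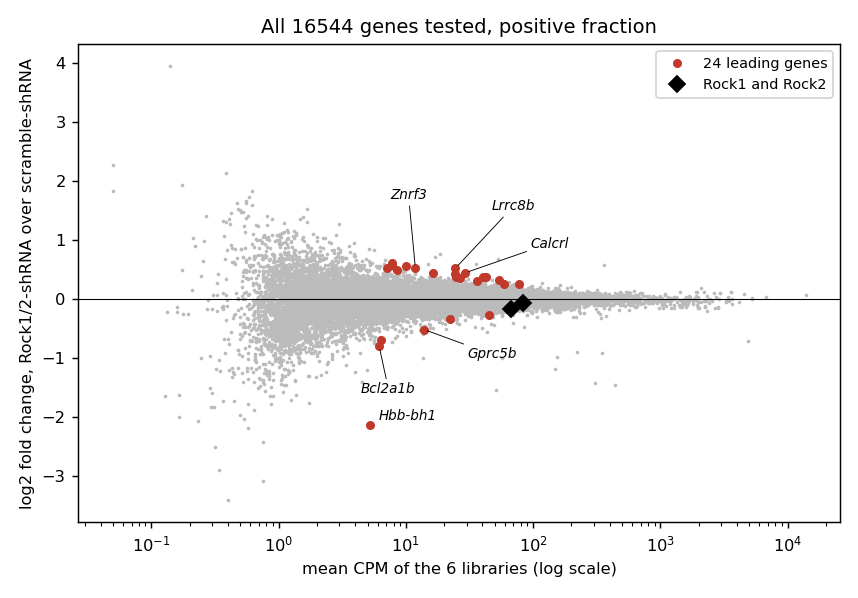
Each grey point is 1 of the 16544 genes tested in the positive fraction, with its mean CPM over the 6 libraries on the x axis (log scale) and its log2 fold change of Rock1/2-shRNA over scramble-shRNA on the y axis. The 24 leading genes (red) lie at the edge of the cloud, and Rock1 and Rock2 (black diamonds) lie within it at -0.07 and -0.16.

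Since no gene passed, the 24 genes with the smallest unadjusted p, among annotated genes with at least 5 CPM and the same sign in the 3 litters, are described as the leading genes. Their adjusted p by edgeR was 1 in each case, their unadjusted p ran from 0.000845 to 0.0113, and they were chosen by these values, so that what follows describes them and does not test them. With Rock1/2-shRNA 18 were higher and 6 lower. The ranges of the groups did not overlap for 15 of them, 14 higher and 1 lower, beside 4.76% of all genes (2.42% higher and 2.34% lower). A choice by small p and shared sign favours such genes, so the count is no result about them.

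The gene with the smallest p was Lrrc8b, which encodes a pore-forming LRRC8 protein of the volume-regulated anion channel, through which cells lose chloride and organic solutes when they swell. Lrrc8b stood at 18.5, 21.2 and 20.6 CPM in the scramble-shRNA libraries of litters 1 to 3 and at 30.1, 28.4 and 28.2 CPM in the Rock1/2-shRNA libraries. Every Rock1/2-shRNA value was above every control value, and the log2 fold change was 0.52 ± 0.13 (SE, 95% interval 0.24 to 0.80). Among the negative cells Lrrc8b was at 30.7, 29.0 and 24.2 CPM with scramble-shRNA and at 29.9, 35.4 and 23.4 CPM with Rock1/2-shRNA. The groups of the negative fraction overlapped, and the scramble-shRNA libraries of the positive fraction were the low ones among the 4 groups. The other subunits on the channel's list did not stand out. Lrrc8a, the obligatory subunit, had a log2 fold change of 0.09 ± 0.11 and Lrrc8d one of -0.11 ± 0.14, and 4 of the 5 measured subunits were higher.

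Znrf3 encodes a membrane ubiquitin ligase that removes Frizzled receptors from the cell surface and so damps Wnt signalling. It was at 9.41, 10.8 and 8.56 CPM with scramble-shRNA and at 13.5, 14.1 and 14.9 CPM with Rock1/2-shRNA. The ranges did not overlap, and the log2 fold change was 0.52 ± 0.15 (95% interval 0.22 to 0.83). Znrf3 in the negative fraction stood at 17.7, 19.1 and 17.7 CPM with scramble-shRNA and at 16.6, 18.3 and 15.7 CPM with Rock1/2-shRNA. There the groups overlapped, all 6 values were above those of the positive fraction, and the log2 fold change was -0.10 ± 0.12. The difference between the fractions was 0.63 ± 0.19 for Znrf3 and 0.45 ± 0.18 for Lrrc8b, with an adjusted p of 1 for each by edgeR.

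Calcrl, the receptor that binds adrenomedullin or CGRP depending on its RAMP partner and is prominent in endothelium, stood at 20.8, 27.3 and 26.3 CPM with scramble-shRNA and at 36.2, 33.3 and 31.8 CPM with Rock1/2-shRNA. The groups did not overlap, and the log2 fold change was 0.44 ± 0.13. With Mylk-shRNA Calcrl stood at 36.5, 43.6 and 29.6 CPM. Its partner Ramp2 had a log2 fold change of -0.03 ± 0.12 and the ligand gene Adm one of 0.20 ± 0.17.

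Fancd2, a core protein of DNA crosslink repair, was at 10.7, 7.98 and 6.34 CPM with scramble-shRNA and at 13.5, 13.96 and 7.96 CPM with Rock1/2-shRNA. It was higher in each litter, but the groups overlapped because litter 3 was low with both vectors. The remaining higher genes had log2 fold changes of 0.25 to 0.61. Among them were Mipep, a peptidase of mitochondrial protein import (0.44 ± 0.14), Trmu, which modifies mitochondrial tRNAs (0.50 ± 0.17), Slc25a53, a member of the mitochondrial carrier family (0.58 ± 0.18), Uimc1, a ubiquitin-binding protein of the BRCA1 complex (0.42 ± 0.13), Rps6ka1, a kinase downstream of ERK (0.37 ± 0.12), and Cpsf1, a subunit of the polyadenylation machinery (0.37 ± 0.13). The ranges did not overlap for any of these 6. The others were Camk1, Zfand4, Dym, Cyp2s1, Ccng1, Pbx3, Zdhhc4 and Arv1.

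Of the 6 lower genes, Bcl2a1b had ranges that did not overlap. It belongs to the A1 group of anti-apoptotic BCL2 relatives, which are typical of leukocytes, and stood at 8.46, 6.95 and 8.19 CPM with scramble-shRNA against 4.59, 4.23 and 4.61 CPM with Rock1/2-shRNA. Every value was lower with Rock1/2-shRNA, and the log2 fold change was -0.80 ± 0.25. The A1 genes are near-identical copies, so the count of any one of them is uncertain, and the copy Bcl2a1d had a log2 fold change of -0.50 ± 0.34. Bcl2a1b was at most 0.247 CPM in the 6 negative libraries of these vectors. Gprc5b, an orphan G protein-coupled receptor, was at 18.3, 18.1 and 12.7 CPM with scramble-shRNA and at 12.8, 13.8 and 7.59 CPM with Rock1/2-shRNA. It was lower in each litter, with litter 3 lowest in both groups, and had a log2 fold change of -0.52 ± 0.17 against 0.16 ± 0.14 in the negative fraction. Folr1, a folate receptor of the proximal tubule, had a log2 fold change of -0.70 ± 0.24. Npepl1, an aminopeptidase-like gene, had one of -0.35 ± 0.12, and Acot7, an acyl-CoA thioesterase, one of -0.28 ± 0.10. Hbb-bh1, an embryonic globin gene, is described below with the erythroid genes.

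**Figure D3:**
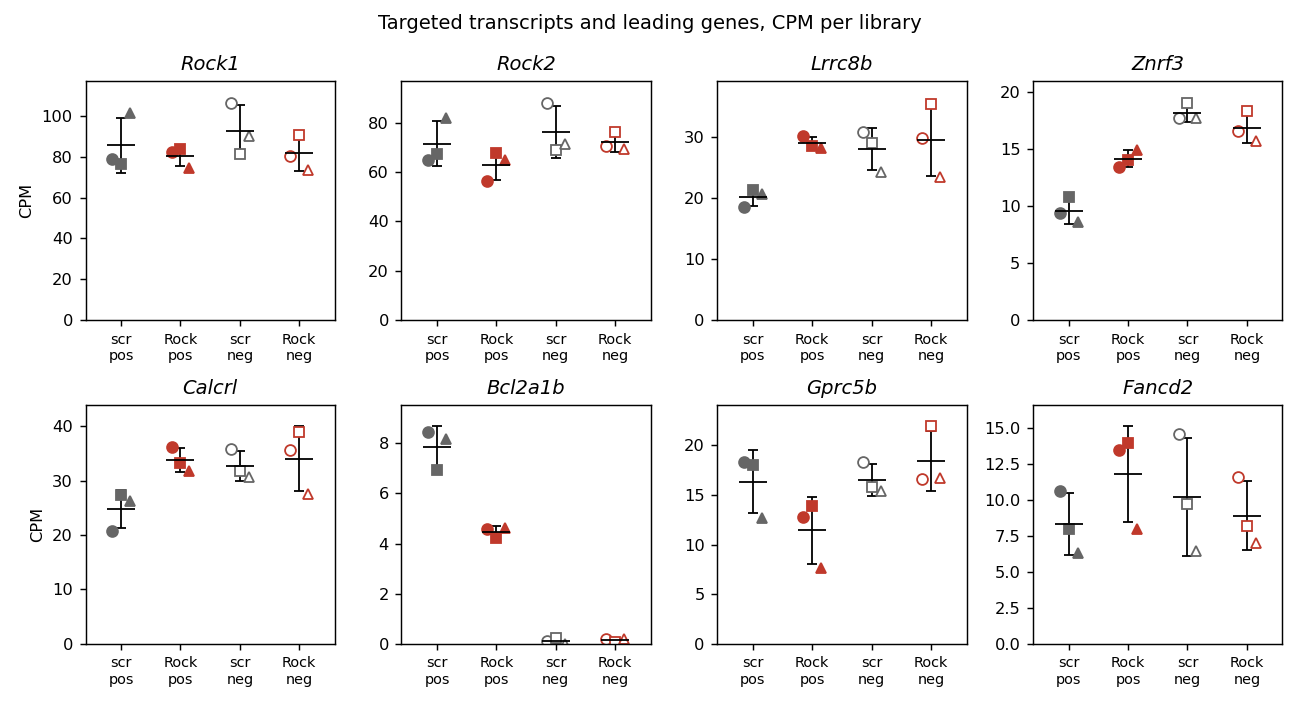
Each panel shows the CPM of a gene (y axis, from 0) in the scramble-shRNA and Rock1/2-shRNA libraries of the positive and the negative fraction, with circles, squares and triangles for litters 1, 2 and 3 and a bar for the mean with its SD (n = 3). The groups of the positive fraction overlap for Rock1 and Rock2 and do not for Lrrc8b, Znrf3, Calcrl and Bcl2a1b.

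The genes that encode the pathway around the kinases stayed close to their control level. The lists are given with the number of their measured members, and none held a gene that passed the test, which was so for 0% of all genes. Of the 20 substrates and myosin phosphatase genes, 8 were higher and 12 lower (median log2 fold change -0.02). The furthest from 0 by p were Limk2, a LIM kinase phosphorylated by ROCK, and Ppp1r12a, the phosphatase's targeting subunit. Limk2 stood at 19.4, 19.2 and 21.7 CPM with scramble-shRNA and at 16.02, 18.1 and 15.2 CPM with Rock1/2-shRNA. All Rock1/2-shRNA values of Limk2 were the lower ones, by a log2 fold change of -0.25 ± 0.13. Ppp1r12a stood at 107, 91.1 and 123 CPM against 86.8, 89.2 and 92.3 CPM. It was lower in each litter while the groups overlapped, with a log2 fold change of -0.24 ± 0.13. Of the 19 genes of non-muscle myosin II and its kinases, 5 were higher and 14 lower with a median of -0.03. The heavy chains Myh9 and Myh10 had log2 fold changes of -0.16 ± 0.15 and -0.12 ± 0.13, and Diaph1, a formin that nucleates actin filaments, one of -0.14 ± 0.11.

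The transcriptional readouts of actin and tension also lay near 0. Of 23 MRTF and SRF genes and targets, 6 were higher and 17 lower (median log2 fold change -0.06), and this median was between -0.11 and 0.00 when single libraries or litters were left out. Mrtfb, which encodes MRTF-B, was at 55.2, 63.8 and 51.4 CPM with scramble-shRNA and at 47.1, 61.3 and 37.0 CPM with Rock1/2-shRNA. It was lower in each litter with overlapping groups, at a log2 fold change of -0.23 ± 0.12. Smooth muscle genes differed between the litters. Actg2, smooth muscle gamma actin, stood at 17.2, 12.8 and 24.1 CPM against 19.5, 6.51 and 2.20 CPM, and Acta2, smooth muscle alpha actin, at 533, 344 and 350 CPM against 562, 258 and 216 CPM. Both were as high with Rock1/2-shRNA as with scramble-shRNA in litter 1 and lower in litters 2 and 3, so their errors were wide, with log2 fold changes of -0.999 ± 0.504 and -0.30 ± 0.31. Of 18 YAP, TAZ and TEAD genes and targets, 10 were higher and 8 lower with a median of 0.00, and the target Ccn2 had a log2 fold change of -0.14 ± 0.22. Of 20 focal adhesion and matrix genes, 9 were higher and 11 lower with a median of -0.02. Lamc1, the laminin gamma 1 chain, had a log2 fold change of -0.19 ± 0.12 and Itgb5, the integrin beta 5 chain, one of 0.12 ± 0.08.

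SRF binds the CArG box, a motif of 10 bases with a pair of C at one end, a pair of G at the other and only A or T between them. The 250 bases upstream of the start sites in RefSeq's annotation of GRCm38.p6 were searched on both strands, on which the motif reads alike; the counts of the study are on GRCm39, so these coordinates belong to the sequence only. A box was found for 7 of the 19 MRTF and SRF list members with a promoter in that table, and for 439 of all 27025 genes in it (1.62%). The sequences of 5 of them are printed because they hold a match to the motif that SRF binds. Binding of SRF to them was not measured here. They run in the direction of the gene, and the box that the stretch is centred on is in capitals. The Srf stretch ends in a further box, left in lower case. The Actg1 sequence (cytoplasmic gamma actin) is at chr11:120348556-120348605 on the minus strand, Cnn2 (calponin 2) at chr10:79988524-79988573 on the plus strand, Fhl2 (a LIM-domain protein) at chr1:43163963-43164012 on the minus strand, Srf at chr17:46556215-46556264 on the minus strand and Vcl (vinculin) at chr14:20929151-20929200 on the plus strand.
Actg1: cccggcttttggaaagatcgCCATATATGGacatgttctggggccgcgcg
Cnn2: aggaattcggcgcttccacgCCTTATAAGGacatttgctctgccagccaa
Fhl2: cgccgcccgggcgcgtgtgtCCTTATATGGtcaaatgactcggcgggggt
Srf: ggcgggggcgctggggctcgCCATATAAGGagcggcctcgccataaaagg
Vcl: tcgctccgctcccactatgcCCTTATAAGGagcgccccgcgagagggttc

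The log2 fold changes of these 5 with Rock1/2-shRNA were 0.00 ± 0.10 for Actg1, -0.07 ± 0.11 for Cnn2, 0.14 ± 0.11 for Fhl2, -0.07 ± 0.15 for Srf and -0.04 ± 0.12 for Vcl. Actg1 stood at 1530 ± 226 CPM (SD, n = 3) with Rock1/2-shRNA and 1520 ± 117 CPM with scramble-shRNA, and Fhl2 at 278 ± 10.5 against 251 ± 16.9 CPM. Over the 7 members with a box 2 were higher and the median was -0.04, with a range of -0.07 to 0.14. Over the 16 without a box or without a listed promoter, 4 were higher and the median was -0.09. The sign for Actg1, Cnn2, Srf and Vcl turned when a library or litter was left out.

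Kidney cell types were followed through their marker lists. In bulk libraries fewer cells of a type and less RNA per cell cannot be told apart. Nephron progenitor genes were level, with 10 of 17 higher, 7 lower and a median log2 fold change of 0.00. Six2 had a log2 fold change of -0.03 ± 0.16 and Wt1, needed for progenitors and podocytes, one of 0.18 ± 0.09, from 91.5, 84.2 and 107 CPM with scramble-shRNA to 104, 100 and 115 CPM with Rock1/2-shRNA. Wt1 was higher in each litter while the groups overlapped. Of 20 early nephron genes 5 were higher and 15 lower with a median of -0.18. The medians of litters 1 to 3 were -0.05, -0.06 and -0.37, so litter 3 was the low one. Bmp2, a ligand of the renal vesicle, stood at 9.41, 9.45 and 11.1 CPM against 6.73, 8.52 and 8.08 CPM, and Lfng, a modifier of Notch, at 6.92, 6.14 and 5.71 CPM against 5.45, 4.73 and 3.43 CPM. Neither gene's groups overlapped, and the log2 fold changes were -0.31 ± 0.19 and -0.46 ± 0.28. Wnt4, which commits progenitors to a nephron, had one of 0.07 ± 0.13, and Lhx1, a patterning factor of the vesicle, one of -0.51 ± 0.61. The early nephron median was between -0.22 and -0.03 when libraries or litters were left out.

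In the ureteric lineage 9 of 12 tip genes were higher (median log2 fold change 0.08), and 9 of 11 trunk and collecting duct genes with a median of 0.24. The litters did not share this, since the trunk median was -0.52 in litter 1, 0.68 in litter 2 and 0.00 in litter 3. Sox8, a tip gene, had the smallest p of the tip list, from 1.24, 0.737 and 0.634 CPM to 2.56, 2.01 and 0.979 CPM. It was higher in each litter at a level of few counts, by a log2 fold change of 1.08 ± 0.44. Podocyte genes (4 of 12 higher, median -0.07), proximal tubule genes (5 of 13 higher, median -0.01) and loop and distal tubule genes (7 of 11 higher, median 0.09) did not share a direction. Of 19 stromal genes 10 were higher and 9 lower with a median of 0.00. Alx1, a homeobox gene, had the smallest p among them at a log2 fold change of 0.32 ± 0.14, from 29.8, 20.9 and 22.8 CPM to 28.5, 32.1 and 28.9 CPM, with litter 1 against the other litters. Of 14 smooth muscle, pericyte and renin cell genes 5 were higher and 9 lower with a median of -0.10.

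**Figure D4:**
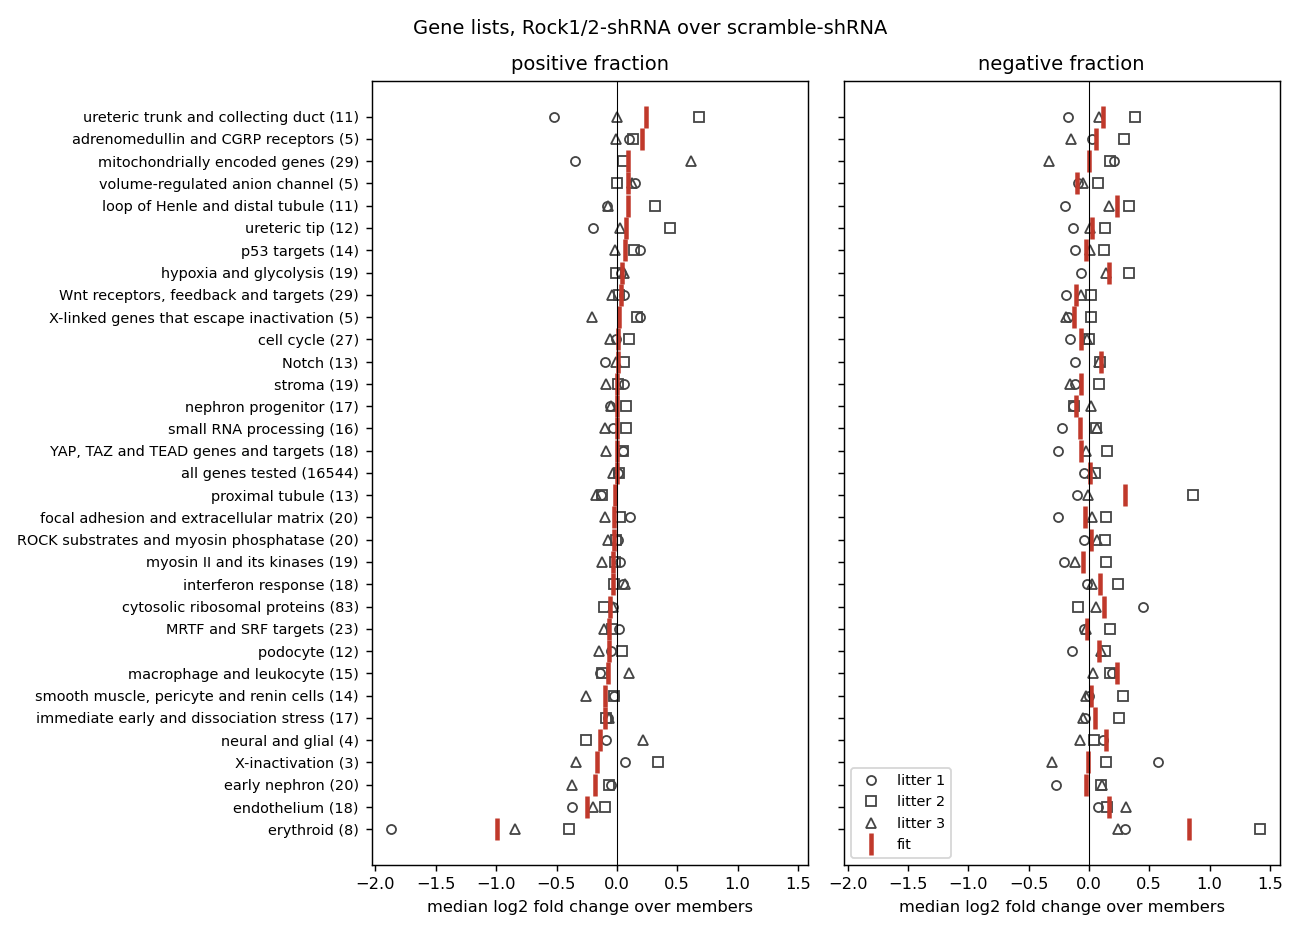
For each gene list shown (number of measured members in brackets) the red bar is the median log2 fold change of Rock1/2-shRNA over scramble-shRNA in the fit and the open symbols are the medians of the log2 CPM ratios in litters 1, 2 and 3, in the positive (left) and the negative fraction (right). Most lists lie within 0.1 of 0 in the positive fraction, while endothelium (-0.25) and erythroid genes (-0.99) lie lowest of the lists shown there (the Y-linked genes are not drawn) and above 0 in the negative fraction.

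Endothelial genes lay mostly below their control level. With Rock1/2-shRNA 15 of 18 were lower and 3 higher (median log2 fold change -0.25), against 50.1% of all genes higher and a median of 0.00. At an unadjusted p under 0.05 there were 2 lower genes and 1 higher, beside 2.13% of all genes. The list median was below 0 in each litter, at -0.37, -0.10 and -0.20 in litters 1 to 3. When libraries or litters were left out it ran from -0.48 without the Rock1/2-shRNA library of litter 2 to -0.13 without that of litter 3, and it was -0.14 without litter 1 and -0.16 without the scramble-shRNA library of litter 2. Sox17, a transcription factor of arterial endothelium, stood at 3.20, 5.03 and 4.76 CPM with scramble-shRNA and at 2.24, 3.31 and 3.43 CPM with Rock1/2-shRNA. It was lower in each litter, with a small overlap between the groups and a log2 fold change of -0.55 ± 0.26. Plvap, a protein of endothelial fenestrae, stood at 10.8, 13.4 and 11.4 CPM against 9.93, 9.47 and 9.55 CPM. Its ranges did not overlap, and its log2 fold change was -0.32 ± 0.15. Cdh5, the cadherin of endothelial junctions, stood at 45.8, 59.8 and 45.0 CPM against 32.7, 57.5 and 32.3 CPM. It was lower in each litter with overlapping groups, at a log2 fold change of -0.30 ± 0.18. The list was not uniform. Calcrl was higher, as given above, and Kdr and Tek, receptors for VEGF and the angiopoietins, had log2 fold changes of 0.05 ± 0.23 and 0.16 ± 0.31. The summed level of the list was 498, 578 and 528 CPM with scramble-shRNA and 436, 562 and 488 CPM with Rock1/2-shRNA, so the totals were lower in each litter and overlapped between the groups. All 18 endothelial genes measured were higher with Rock1/2-shRNA in the negative fraction, beside 52.2% of all genes, and their log2 fold changes had a median of 0.17. This was not particular to endothelium, since all 19 hypoxia and glycolysis genes (median 0.17) and all 13 proximal tubule genes (median 0.30) were higher there too. The litters differed, however. In litters 1 to 3 the negative fraction's medians were 0.08, 0.15 and 0.30 for endothelium. They were -0.06, 0.33 and 0.14 for hypoxia and glycolysis, and -0.10, 0.86 and -0.01 for the proximal tubule.

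All 8 measured members of the erythroid list were lower in the fit, with a median of -0.99 on log2. In each litter 7 of them were lower, beside 12.5% of all genes (25% with the same sign in the 3 litters either way). These 7 were all globin genes. The other member, Slc4a1, stood at 1.42, 1.35 and 1.90 CPM with scramble-shRNA and at 3.20, 0.947 and 0.979 CPM with Rock1/2-shRNA, so it was higher in litter 1. The list median ran from -1.52 without the Rock1/2-shRNA library of litter 3 to -0.66 without the scramble-shRNA library of litter 1. The level of these genes differed widely between litters. Hbb-y, an embryonic beta-like globin, stood at 559, 111 and 1231 CPM with scramble-shRNA and at 137, 56.9 and 555 CPM with Rock1/2-shRNA, and Hbb-bs, an adult beta globin, at 133, 140 and 330 CPM against 34.4, 101 and 186 CPM. Both were lower in each litter while the groups overlapped widely, and their log2 fold changes were -1.46 ± 0.74 and -0.98 ± 0.45. Hbb-bh1 stood at 11.2, 1.23 and 13 CPM against 1.60, 0.118 and 4.16 CPM, a log2 fold change of -2.14 ± 0.62. It did not pass in the fit of all libraries (adjusted p of 1, edgeR) and did pass in the 2 other fits given under the dependence on processing. In negative cells the 8 genes were higher with Rock1/2-shRNA, with a median of 0.83 (0.30, 1.42 and 0.24 by litter, litter 2 being the high one) and a summed level of 125 to 369 CPM against 80.7 to 143 CPM. In the positive fraction the sums were 395 to 1908 and 605 to 3430 CPM. The part of red cells in either result was not tested.

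Macrophage and leukocyte genes were concentrated in the positive fraction, with summed levels of 360 to 520 CPM with scramble-shRNA and 309 to 505 CPM with Rock1/2-shRNA, against 13.3 to 22.8 CPM and 16.6 to 20.5 CPM in the negative fraction. Of 15 genes 4 were higher and 11 lower in the positive fraction with a median log2 fold change of -0.07. Csf1r, the growth factor receptor of macrophages, had a log2 fold change of -0.16 ± 0.27 and Fcer1g, an Fc receptor chain, one of -0.22 ± 0.12. The part of leukocytes in the lower Bcl2a1b value was not tested.

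Other gene groups were near their control level. Of 29 Wnt receptors, feedback genes and targets 19 were higher and 10 lower with a median log2 fold change of 0.03. Beside Znrf3 its paralog Rnf43 had one of -0.67 ± 0.46 at 0.490 to 1.90 CPM, and Axin2, a direct target of canonical Wnt signalling, stood at 31.4, 38.2 and 34.2 CPM with scramble-shRNA and at 38.4, 38.2 and 36.7 CPM with Rock1/2-shRNA. The Axin2 groups overlapped, and the log2 fold change was 0.11 ± 0.11. Of 14 p53 targets 12 were higher and 2 lower with a median of 0.07, and 2 were higher at an unadjusted p under 0.05, where the share over all genes was 1.11%. These were Ccng1, cyclin G1, at 47.6, 51.3 and 44.4 CPM against 71.4, 62.8 and 46.0 CPM, and Trp53inp1, a pro-apoptotic p53 target, at 34.4, 33.6 and 25.7 CPM against 41.6, 37.7 and 31.8 CPM. Both were higher in each litter with overlapping groups, at log2 fold changes of 0.32 ± 0.11 and 0.23 ± 0.11, while Cdkn1a, the cell cycle inhibitor p21, had one of 0.08 ± 0.10 and Mdm2, the p53 ubiquitin ligase, one of 0.14 ± 0.09. Of 17 immediate early and dissociation stress genes 2 were higher and 15 lower with a median of -0.10. The exception by p was Dnajb5, a heat shock cochaperone, at 5.86, 7.49 and 5.07 CPM against 10.9, 8.28 and 9.06 CPM. Its groups did not overlap, and the log2 fold change was 0.52 ± 0.19.

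Cell cycle genes (15 of 27 higher, median 0.01), Notch genes (7 of 13 higher, median 0.01), hypoxia and glycolysis genes (12 of 19 higher, median 0.05) and interferon response genes (8 of 18 higher, median -0.03) lay around 0. The machinery that processes miRNAs and shRNAs was also level, with 8 of 16 genes higher and a median of 0.00; Dicer1, which cuts the hairpins, had a log2 fold change of 0.11 ± 0.13 and Ago2, which carries the guide strand, one of -0.13 ± 0.15. Cytosolic ribosomal protein genes leaned the same way in small steps, with 72 of 83 lower and a median of -0.05, beside 50.1% of all genes higher. Of the 83, 38 were lower in each litter, beside 12.5% of all genes. The negative fraction had 77 of the 83 higher, beside 52.2% of all genes, with a median of 0.12. By litter the medians were 0.45, -0.09 and 0.06, so litter 1 was the high one and litter 2 lay the other way. Mitochondrially encoded genes had a median of 0.09 over 29 genes, but the litters gave -0.35, 0.05 and 0.61, with the Rock1/2-shRNA library of litter 3 the high one.

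Whether the response differed between the fractions was tested as an interaction. Of 16544 genes 0 (0%) passed by edgeR, with 437 (2.64%) at an unadjusted p under 0.05, 161 higher (0.973%) and 276 lower (1.67%) in the positive fraction's response. DESeq2 and voom called 0 as well. Over the endothelial list 7 of 18 genes were among the 437, and 15 of 18 had the lower response in the positive fraction (49.8% of all genes had the higher one), among them Sox17 at -1.08 ± 0.33, Egfl7, a secreted endothelial protein, at -0.53 ± 0.19 and Plvap at -0.49 ± 0.20. The lower response was also seen in 17 of 19 hypoxia and glycolysis genes and 11 of 13 proximal tubule genes, of which 0 and 1 were among the 437. Of the 8 erythroid genes 3 were among the 437, and all 8 had the lower response in the positive fraction. Of the 15 macrophage and leukocyte genes 3 were among the 437, and 11 had the lower response. C1qc, a complement gene of macrophages, had an interaction of -1.43 ± 0.45 on log2, with 0.183 to 0.771 CPM in the scramble-shRNA and 1.04 to 1.31 CPM in the Rock1/2-shRNA libraries of the negative fraction, so the difference came from a low level there. In the negative fraction alone 0 genes (0%) passed, with 644 (3.89%) at an unadjusted p under 0.05. For the 24 leading genes, which were picked on the positive libraries, the negative fraction's log2 fold change was nearer to 0 in 24 and had the same sign in 16.

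**Figure D5:**
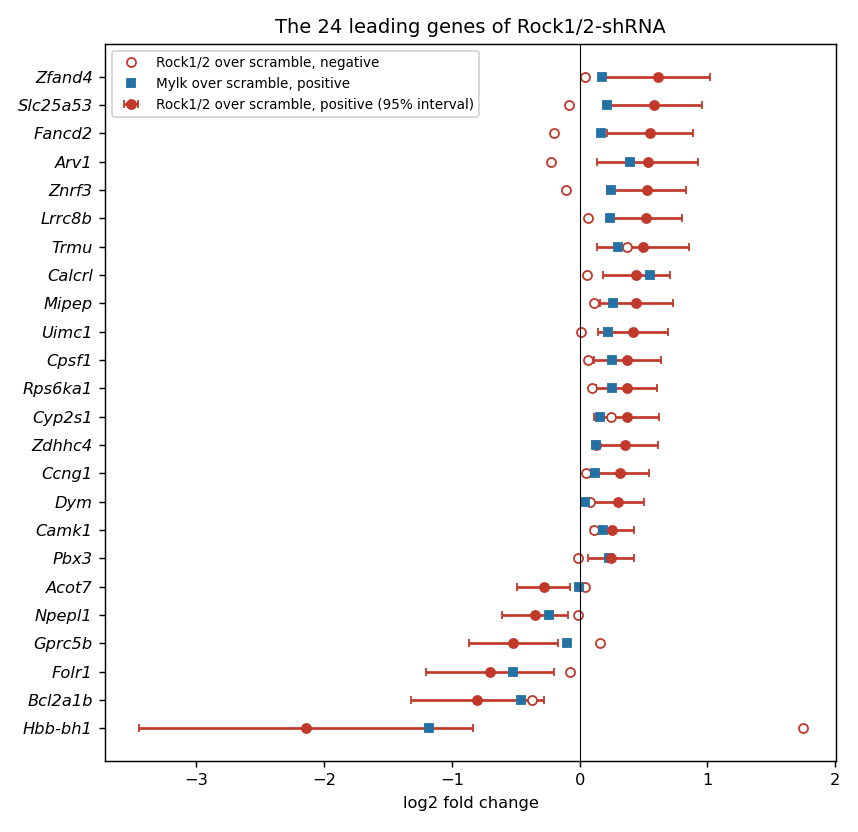
The 24 leading genes are ordered by their log2 fold change (x axis) of Rock1/2-shRNA over scramble-shRNA in the positive fraction, drawn as filled red circles with 95% intervals. Open circles give the same contrast in the negative fraction and blue squares give Mylk-shRNA over scramble-shRNA in the positive fraction, which uses the same scramble-shRNA libraries; for Lrrc8b the 3 values are 0.52, 0.07 and 0.24.

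The other knockdown was set beside these values. Rock1/2-shRNA and Mylk-shRNA share the scramble-shRNA libraries as control, so the values of the contrasts are given side by side only. Lrrc8b was at 23.3, 29.5 and 18.6 CPM with Mylk-shRNA, so that litter 2 lay among the Rock1/2-shRNA values and litter 3 among the controls, and Znrf3 was at 11.8, 13.6 and 9.30 CPM, with the same order of litters. The contrast without the shared control sets Rock1/2-shRNA directly against Mylk-shRNA in the positive fraction. There 0 of 16544 genes (0%) passed by edgeR, with 477 (2.88%) at an unadjusted p under 0.05 and 898 (5.43%) with ranges that did not overlap. DESeq2 and voom called 0 too. Lrrc8b had a log2 fold change of 0.28 ± 0.13 in this contrast, Znrf3 one of 0.28 ± 0.15, Calcrl one of -0.11 ± 0.12 and Gprc5b one of -0.42 ± 0.17. Rock1 itself was at -0.06 ± 0.12 and Rock2 at -0.17 ± 0.13 against Mylk-shRNA.

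For Znrf3 and Lrrc8b the genes with the most similar pattern were looked up over all 18 libraries, by the correlation of log2 levels after the litter means had been removed, among 10862 genes. The libraries share litters and fractions, so these values are descriptions. Znrf3 was most like Nras (r = 0.91), a RAS GTPase gene, then Aplf (0.89), Rbm34 (0.88), Tti2 (0.87) and Fbrsl1 (0.86). Nras stood at 92.9, 98.9 and 94.5 CPM with scramble-shRNA and at 109, 101 and 103 CPM with Rock1/2-shRNA in the positive fraction. Its groups did not overlap either, while its log2 fold change was 0.12 ± 0.08. Lrrc8b was most like Ipmk (0.87), an inositol phosphate kinase gene, then Mipep (0.83), Paip2b (0.83), Spred1 (0.82) and Blzf1 (0.81), of which Mipep is also a leading gene.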

How the data were processed

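Libraries were made by poly(A) capture and tagmentation, with 100 to 300 ng of input RNA, per the labels' protocols. The submitters' processing notes name fastp 0.24.0, STAR 2.7.11, Subread 2.1.1 with featureCounts, SAMtools 1.22.1, MultiQC 1.32 and FastQC 0.12.1, and the build GRCm39. Settings, annotation and strandedness of the counting: not given in the sources used here. For each gene and library the authors deposited an estimated count, which need not be whole, and a CPM value. In the 6 libraries 23.2 to 25.7% of the nonzero counts were fractions, and how reads of near-identical genes were shared is not stated.

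From there, counts were rounded to whole numbers, the 92 ERCC spike-in transcripts were left out, and edgeR's filterByExpr (minimum count 10, minimum total 15) kept 16544 genes. After TMM scaling, a quasi-likelihood model (edgeR 4.0.16, robust) was fitted to the 18 libraries together. It had a mean for each of the 6 combinations of vector and fraction and a term for litter, which left 10 residual degrees of freedom and a common coefficient of variation of 0.0987. The threshold was 0.05 after Benjamini-Hochberg adjustment over the whole table, and the negative-fraction, interaction and Mylk-shRNA contrasts came from the same model. Standard errors were derived from the fold change and its p, intervals are 95% intervals, and levels are deposited CPM with no further scaling. Errors cover counting error and the spread between libraries that remains after the litter term, estimated over all groups together. Within a group a litter's pool counts as 1 sample. The positive and the negative library of a pool entered this model as separate samples, without a term for the pool. Other versions were limma 3.58.1, DESeq2 1.42.0 and R 4.3.3. The test was also tried on simulated data in which each library was drawn independently. That trial did not cover the pools that the fractions share, and no result rests on it.

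Litter pairs the libraries, since the labels say that the kidneys of a replicate share a litter. Deviations from the group means correlated at r = 0.245 to 0.683 (median 0.422) over the 45 pairs of the same litter, which include the fractions of a pool. Over the 3 pairs of Rock1/2-shRNA and scramble-shRNA in the positive fraction they correlated at 0.326 to 0.501. Over 108 pairs of different litters r ran from -0.812 to 0.327 (median -0.309), so the ranges overlapped. Deviations within a group cancel out, so negative values between litters are partly built in. No 2 libraries of a group agreed within sampling noise, with a chi-square per gene of 4.29 to 17.2, so none was counted as a duplicate.

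The genes named are Rock1, Rock2 and Mylk, then 24 genes by adjusted p, filled by unadjusted p, with at least 5 CPM over the 6 libraries and the same sign in the 3 litters, leaving out predicted genes and pseudogenes, then for each of 34 lists the 3 tested members with the smallest p, and the 5 genes most like Znrf3 and Lrrc8b. Further members of the lists are named as examples for their role. A selection of these is given, and 1 list is not reported here. The members and lists were chosen with earlier results of these data known, and no list was tested. Alternatives were no replicate block, DESeq2's size factors, DESeq2's own test, no filter, only the compared groups, only the positive fraction, limma's voom with the culture as a random effect, a covariate for Y-linked transcripts, another pseudocount (0.25 instead of 1), and leaving out each library or litter. 0 columns of the table were without a sample.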

Additional observations from a re-analysis of the deposited data

Results flagged for a closer look

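Of the 34 lists, those were flagged whose litter medians all had the same sign in the positive fraction and the opposite sign in the negative fraction. The signs by litter given here are therefore the rule of choice and lend no support. The response of the endothelial list had opposite signs in the 2 fractions. In the positive fraction its median log2 fold change was -0.2514 and below 0 in each of the 3 litters (-0.37, -0.10 and -0.20), and in the negative fraction it was 0.17 and above 0 in each litter (0.08, 0.15 and 0.30). The erythroid list did the same, with a median of -0.9948 in the positive fraction (-1.87, -0.39 and -0.84 by litter) and 0.83 in the negative fraction (0.30, 1.42 and 0.24), where litter 2 was the high one. The difference of the lists' medians was not tested, since the lists were chosen with results known, and no single gene passed the interaction test. The ERCC spike-in transcripts, which are in the table but for which no label describes a spike-in, had 97 counts summed over the 6 libraries, 8 to 22 in a library.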

How the results depend on the processing

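In the positive fraction the number of genes that passed between Rock1/2-shRNA and the scrambled control was 0 with no replicate block (145 genes at an unadjusted p under 0.05), with DESeq2's size factors, with DESeq2, with voom, with the positive fraction alone, with the Y-linked covariate (377) and when each library or litter was left out (241 to 501). It was 1 with no filter on low counts (Hbb-bh1, adjusted p 0.00329, edgeR) and 3 with only the compared groups, which were Hbb-bh1 (adjusted p 0.00217, edgeR), Fabp4 and a gene without a symbol. For a pair of groups, fitting only these left 2 residual degrees of freedom, so the spread behind such calls is poorly known. The gene without a symbol had an unadjusted p of 0.301 in the fit of all libraries (edgeR), and Hbb-bh1 had at most 63 counts in a library. In the negative fraction the number of genes that passed was 4 with no filter, 2 with only the compared groups (Hbb-bs and Hbb-bt) and 0 to 3 when a library or litter was left out, the 3 without litter 2. For Rock1/2-shRNA against Mylk-shRNA it was 1 with only the compared groups, and for the interaction 2 with no filter (Ctla2a and Fabp4). The replicate block changed no call. When a library or litter was left out, the sign turned for 11 of the genes below, none of them past the threshold in any setting. Their log2 fold changes then ran from -0.18 to 0.080 for Rock1 (positive without litter 3 or either of its libraries), -0.049 to 0.050 for Actg1, -0.011 to 0.13 for Cdkn1a, -0.19 to 0.024 for Cnn2, -0.46 to 0.24 for Kdr, -0.23 to 0.045 for Mylk, -0.076 to 0.015 for Ramp2, -0.14 to 0.074 for Six2, -0.19 to 0.017 for Srf, -0.15 to 0.072 for Vcl and -0.070 to 0.22 for Wnt4. The Rock1 difference in mean log2(CPM + 1) ran from -0.16 to 0.044. With the Y-linked covariate the sign turned for Actg1 (0.019), Kdr (-0.056), Ramp2 (0.002218) and Six2 (0.027), and with no replicate block for Actg1 (0.0037). The causes were not tested. Of the 24 leading genes each kept its sign in every setting run. They were chosen by small p and by the same sign in the 3 litters, so this was largely set by the choice. Depth limits the low genes, since over all 16544 genes 13334 intervals (80.6%) stayed within 2-fold, against 99.4% at 10 CPM or more.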

Other observations

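Fabp4 and Ctla2a are described here because of their values, after these were seen. Fabp4, a fatty acid carrier of capillary endothelium and fat cells, stood at 97.6 ± 7.92 CPM (SD, n = 3) with scramble-shRNA and 71.8 ± 9.46 CPM with Rock1/2-shRNA in the positive fraction, with ranges that did not overlap and a log2 fold change of -0.47 ± 0.19, against 0.32 ± 0.17 in the negative fraction. Ctla2a, a cysteine protease inhibitor gene, stood at 9.58 ± 0.472 CPM and 5.86 ± 1.84 CPM, also without overlap, with a log2 fold change of -0.74 ± 0.31 in the positive and 0.57 ± 0.22 in the negative fraction. The difference between the fractions was -0.79 ± 0.25 for Fabp4 and -1.30 ± 0.38 for Ctla2a, and the adjusted p of each was 1 by edgeR with the filter on low counts.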
